A study of Oryza sativa with 4 samples.

Results

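The genes described here are the 9 core genes of the rice circadian clock, measured in leaves of plants that overexpress the transcription factor gene *OsNAC14* and in leaves of non-transgenic plants. They were chosen by gene ID with earlier results of these data known, by a rule that holds no measured value, and are *OsLHY* (Os08g0157600), *OsPRR73* (Os03g0284100), *OsPRR37* (Os07g0695100), *OsPRR95* (Os09g0532400), *OsPRR59* (Os11g0157600), *OsPRR1* (Os02g0618200), *OsGI* (Os01g0182600), *OsLUX* (Os01g0971800) and *OsELF3-1* (Os06g0142600). All 9 were in the deposited table of 31414 genes, with 17 of its 37972 transcript models. The deposited descriptions name the clock, LHY, PRR73, PRR37, GIGANTEA or ELF3 for 5 of these genes. Those of *OsPRR95* and *OsPRR1* give only a response regulator receiver domain, that of *OsPRR59* a CCT motif, and that of *OsLUX* a likeness to the response regulator ARR11, so the names of these 4 genes rest on their IDs.

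The plant clock is a loop of transcription factors that repress each other in turn over the day. From work mainly in Arabidopsis, LHY is a MYB factor made around dawn that represses evening genes, the pseudo-response regulators (PRR) follow in a series from morning to evening and repress *LHY*, and LUX and ELF3 act together in the evening complex, which represses targets at night. GIGANTEA is a large protein of the late day that stabilizes light-sensing F-box proteins, and in rice it connects the clock to the photoperiodic control of heading.

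Leaf RNA libraries of NT and OsNAC14OX plants were compared, with 2 libraries in each group. NT plants were non-transgenic cultivar Nakdong, and OsNAC14OX plants were Nakdong of 1 transformed line (line 11) in which the PGD1 promoter, used for expression in the whole plant, drives *OsNAC14* (PGD1:OsNAC14). None was drought-treated, all grew in soil, and the sources used here do not give the hour of harvest. The sample labels give an age of 20 days and the cultivar as Nipponbre, whereas the study's methods describe plants of 2 weeks and cultivar Nakdong. The replicates are described as biological duplicates, but the number of plants in each and any shared day of harvest are not stated. A year-like number stands in the deposited names of both NT libraries and in neither of those of OsNAC14OX, and a batch, if it marks one, cannot be told apart from the overexpression. With such groups a p-value measures a difference only against the spread between these libraries, which may be technical.

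The values are FPKM, reads corrected for the length of the transcript and the mapped reads of the library, so the depth behind each is unknown. FPKM summed to between 735318 and 765959 per library. The transgene was visible in the labelled libraries, since *OsNAC14* (Os01g0675800) had FPKM of 3.16 and 3.70 in NT and of 16.4 and 16.3 in OsNAC14OX. Leaf markers were high in all 4 libraries. Chlorophyll a-b binding transcripts summed to between 8699 and 11332 FPKM. Small subunits of Rubisco, the carbon-fixing enzyme, summed to 6611 and 6093 in NT and to 10478 and 10821 in OsNAC14OX. All 6 of their transcripts, models of 4 genes, were higher in both OsNAC14OX libraries. On the normalized scale 20.4% of all transcripts tested were so. None of the 6 was called (lowest adjusted p = 0.066 from limma), where 0.555% of all transcripts tested were. Transcripts described as RCc3, a protein known from roots, were not absent and summed to 513.3 and 505.7 FPKM in NT and to 235.6 and 451.2 in OsNAC14OX. The part of these differences in the clock values was not tested.

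In all 4 libraries every other clock gene, of the morning as well as of the evening, stood above the dawn gene *OsLHY*. The morning gene *OsPRR73* ranked above the evening gene *OsPRR1* in every library except NT replicate 1. *OsGI* was the highest of the 9 genes and *OsLHY* the lowest in every library, with *OsPRR95* second in every library. When FPKM was summed over the transcript models of a gene, *OsGI* was 90.0 and 87.4 times *OsLHY* in the NT replicates and 63.7 and 62.8 times in the OsNAC14OX replicates. *OsPRR1* was at most 10.2 times *OsLHY* in NT and 7.02 and 6.56 times in OsNAC14OX. These are ratios of FPKM, which are scaled for length. Against all 31414 genes of the table, *OsGI* lay between the 99.6th and the 99.7th percentile in the 4 libraries and *OsLHY* between the 44.8th and the 55.3rd.

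**Figure D1:**
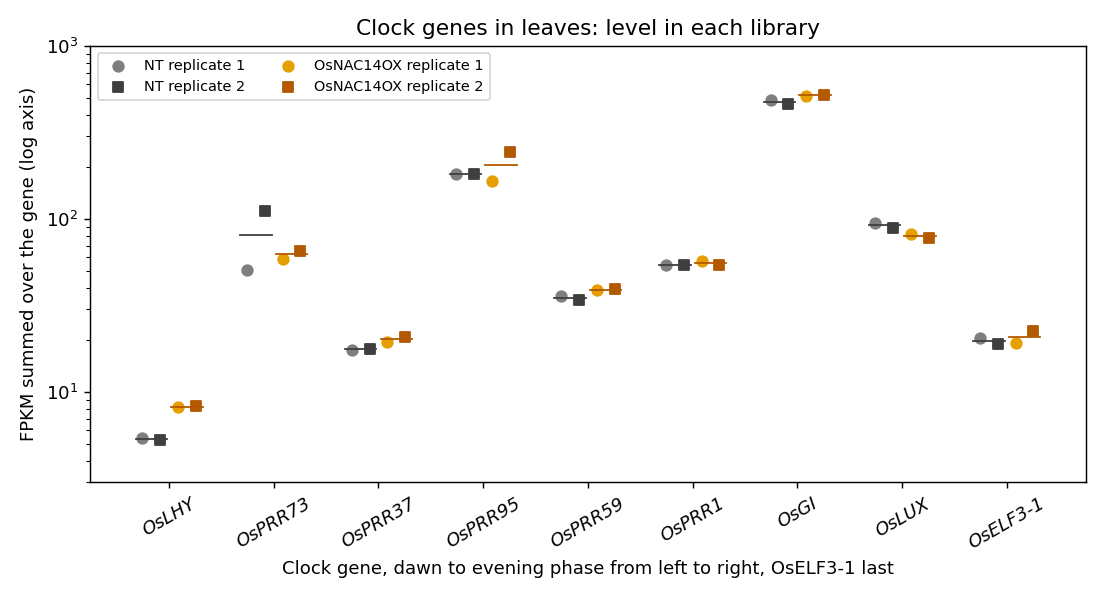
FPKM summed over the transcript models of each of 9 clock genes (log axis) in 2 NT and 2 OsNAC14OX libraries. Each point is 1 library and each short line the mean of a group. *OsGI* sits between 461.6 and 521.0 FPKM and *OsLHY* between 5.28 and 8.29, and *OsLHY* is the gene whose groups lie farthest apart relative to the spread of their replicates.

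The order of levels from the mean of the 4 libraries was *OsGI*, *OsPRR95*, *OsLUX*, *OsPRR73*, *OsPRR1*, *OsPRR59*, *OsELF3-1*, *OsPRR37* and *OsLHY*. Neighbours in that order were apart in every library except for 3 pairs. *OsLUX* and *OsPRR73*, *OsPRR73* and *OsPRR1*, and *OsELF3-1* and *OsPRR37* overlapped across libraries. *OsPRR73* ranked above *OsLUX* in NT replicate 2 alone and below *OsPRR1* in NT replicate 1 alone.

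The comparison of OsNAC14OX with NT asks whether raising *OsNAC14* came with a change of clock gene transcripts in undisturbed plants. It was made with limma on the authors' normalized log2(FPKM + 1) values for the 30251 transcripts that reached 1 FPKM in 2 or more libraries. Of the 17 clock transcripts, 15 passed this filter. None of the 15 was called at a Benjamini-Hochberg adjusted p under 0.05 with a fold of at least 2, where 0.555% of all transcripts tested were called, and the lowest adjusted p among them was 0.425 (limma). At an unadjusted p under 0.05, 2 of the 15 passed, against a background of 9.40%. Both were transcripts of *OsLHY*. On FPKM summed per gene, none of the 9 clock genes was called, with a background of 0.724% of 25811 genes, and 1 of 9, *OsLHY*, had an unadjusted p under 0.05, with a background of 9.66%. In bulk leaf samples, fewer cells that express a gene and less RNA per cell cannot be told apart.

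The log2 fold change was above 0 for 13 of 15 clock transcripts and 7 of 9 clock genes, and for 15335 of the 30251 transcripts and 12738 of the 25811 genes tested. These 15 transcripts are models of the 9 genes in the same libraries and are not independent observations. The median over the clock transcripts was 0.18 and over all transcripts tested 0.003. On the normalized scale the groups did not overlap for 9 of 15 clock transcripts, and for 6 of 9 clock genes, where 40.9% of all transcripts and 41.1% of all genes tested did not overlap. OsNAC14OX was the higher group in 8 of the 15 transcripts and 5 of the 9 genes, where it was so in 20.4% of all transcripts and 19.6% of all genes. The median size of the log2 fold change, regardless of sign, was 0.20 for the clock transcripts and 0.13 for all transcripts.

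**Figure D2:**
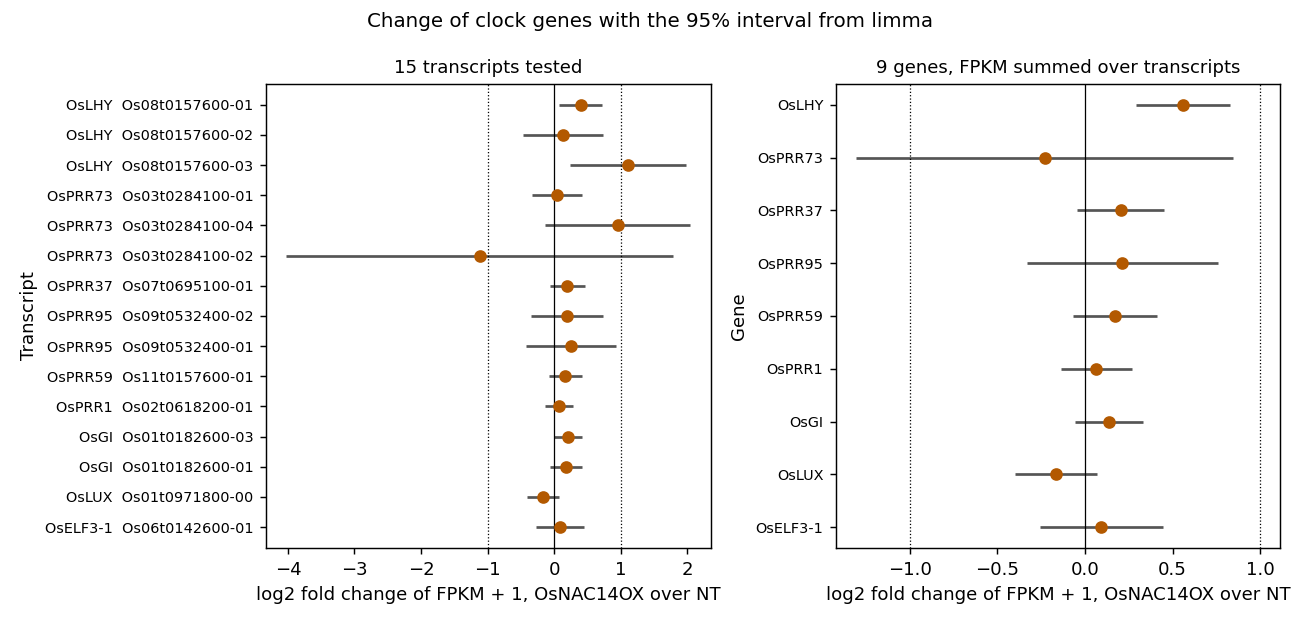
Log2 fold change of FPKM + 1 in OsNAC14OX over NT for the 15 clock transcripts tested (left) and for the 9 genes with summed FPKM (right). Points are estimates, bars the 95% intervals from limma, and dotted lines a fold of 2 in either direction. The interval lies within these lines for 12 transcripts and for 8 genes, and the widest are those of *OsPRR73*.

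*OsLHY*, the dawn MYB factor, lies on chromosome 8 from 3360865 to 3373395 (IRGSP-1.0). Its summed FPKM was 5.42 and 5.28 in the NT replicates and 8.11 and 8.29 in the OsNAC14OX replicates. Both OsNAC14OX values lay above both NT values, and the replicates of a group were closer to each other than to the other group. The ratio of the means was 1.53, and the log2 fold change of FPKM + 1 was 0.56 (standard error 0.10, 95% interval of the fold from 1.22 to 1.78), with an unadjusted p of 0.00432 and an adjusted p of 0.203 from limma. The difference is thus larger than the spread of these replicates but did not pass the adjustment over all genes, and its interval lies under a fold of 2. Leaving out each library in turn gave adjusted p-values from 0.0693 to 1.

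The 3 models of *OsLHY* did not contribute alike. Os08t0157600-01, the long model described as the circadian MYB factor, had 3.31 and 3.25 FPKM in NT against 4.26 and 4.82 in OsNAC14OX (log2 fold change 0.40, adjusted p = 0.442 from limma). Os08t0157600-02 overlapped between the groups, at 2.11 and 1.22 in NT and at 1.84 and 1.81 in OsNAC14OX. The short Os08t0157600-03, of 646 bases, was near 0 in NT replicate 1 (0.000388) and at 0.807 in NT replicate 2, against 2.02 and 1.66 in OsNAC14OX. Its log2 fold change was 1.12 (95% interval from 0.24 to 1.99, adjusted p = 0.425 from limma), and 0.70 without NT replicate 1. With a pseudocount of 0.1 in place of 1 it was 2.74, since the model is near 0 in 1 library. The long model held 61.0% and 61.6% of the gene's FPKM in NT and 52.5% and 58.2% in OsNAC14OX.

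*OsPRR73*, a pseudo-response regulator of the morning on chromosome 3 (9759666 to 9768689), varied most among the libraries, by a factor of 2.18 between the highest and the lowest. Its summed FPKM was 50.8 and 110.7 in NT and 59.0 and 65.5 in OsNAC14OX, so both OsNAC14OX values lay between the NT values. The log2 fold change was -0.23 (standard error 0.39). Its 95% interval as a fold ran from 0.405 to 1.79, and limma gave an adjusted p of 0.886. Without NT replicate 2 the log2 fold change was 0.32 and without NT replicate 1 it was -0.78, so a change of this gene in either direction could not be resolved here.

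The high value of NT replicate 2 was carried by 1 model. Os03t0284100-02, of 1119 bases within the span of the gene, had 65.2 FPKM in that library and 7.01, 8.95 and 9.81 in NT replicate 1 and the OsNAC14OX replicates. It made up 58.9% of the gene's FPKM there and between 13.8% and 15.2% elsewhere. The full-length model Os03t0284100-01 was at 31.9 and 40.1 FPKM in NT and at 35.9 and 37.1 in OsNAC14OX, with overlapping groups (log2 fold change 0.05, 95% interval from -0.33 to 0.43). The non-coding Os03t0284100-04, of 382 bases, was lowest in NT replicate 2 at 5.39, against 11.8 in NT replicate 1 and 14.1 and 18.6 in OsNAC14OX. Os03t0284100-03 reached at most 0.0405 FPKM in any library and was not tested. How reads shared by such overlapping models were divided is set by the authors' estimate.

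The log2 fold change of Os03t0284100-02 was -1.12 (standard error 1.05, adjusted p = 0.798 from limma), and 0.38 without NT replicate 2. Its size was the largest among the clock transcripts only by a margin lost in rounding, and with a pseudocount of 0.5 or 0.1 that of Os08t0157600-03 was larger. The transcripts most like it over the 4 libraries, by the root mean square difference of the centred log2 values, were Os02t0224800-02 (0.139), Os01t0338100-00 of a transcription initiation factor subunit (0.169) and Os02t0729700-02, similar to the sunflower homeodomain gene HAHB-7 (0.180). Os02t0729700-02 had 245.2 FPKM in NT replicate 2 and 29.3, 27.4 and 31.1 in the other libraries. Of the 30251 transcripts, 42 (0.139%) were at least 4-fold higher in NT replicate 2 than in each other library and 0 were so in NT replicate 1. This count was chosen after the values of *OsPRR73* were seen and was not made for the OsNAC14OX libraries.

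**Figure D3:**
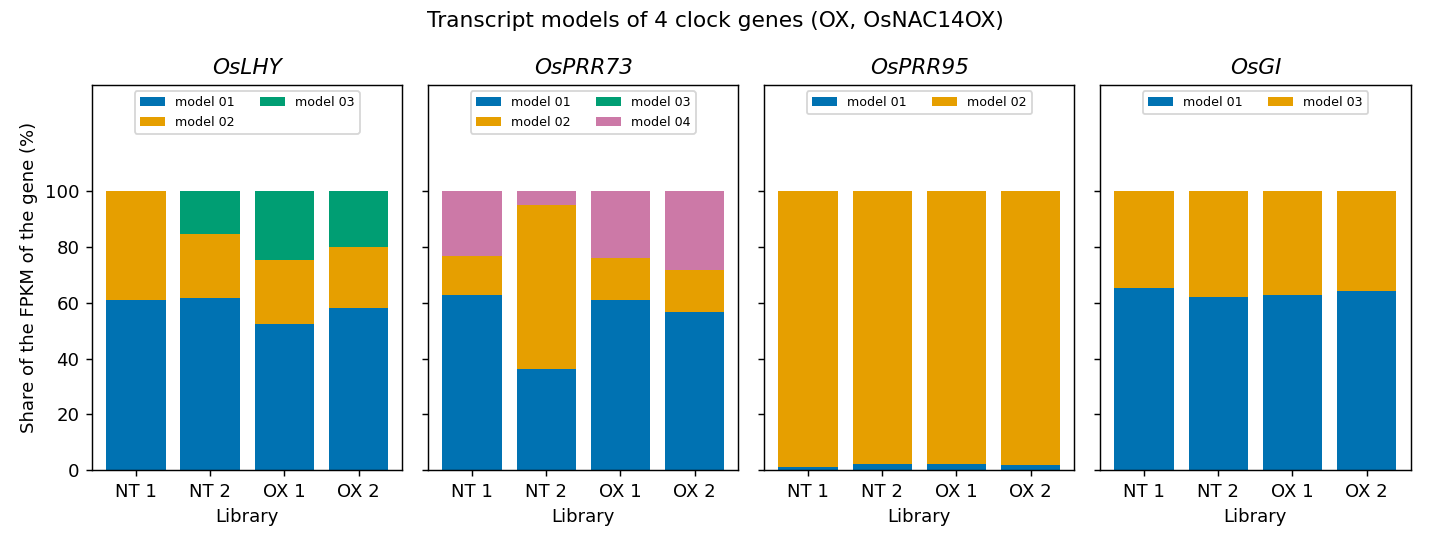
Share of a gene's FPKM held by each transcript model (%) in each library, for the 4 clock genes with more than 1 model above the filter. Bars of 1 library sum to 100%. In *OsPRR73* model 02 takes 58.9% in NT replicate 2 and at most 15.2% in the others, in *OsLHY* model 03 is near 0 in NT replicate 1, and *OsGI* and *OsPRR95* hold nearly the same shares throughout.

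*OsPRR37*, which follows in the morning and delays heading in long days, lies on chromosome 7 from 29616705 to 29629215. It had 17.4 and 17.7 FPKM in NT against 19.4 and 20.7 in OsNAC14OX. The groups did not overlap, and the log2 fold change was 0.20 (standard error 0.09, 95% interval of the fold from 0.970 to 1.37, adjusted p = 0.593 from limma on the summed FPKM). All of it came from Os07t0695100-01, since Os07t0695100-02 reached at most 1.77e-05 FPKM in any library and was not tested. Both morning PRR genes overlap other annotated genes. The hypothetical gene Os03g0284150, across much of *OsPRR73*, had between 104.3 and 143.7 FPKM, and the non-coding Os07g0695200, within *OsPRR37*, between 27.4 and 31.0. The sources used here do not say whether the authors counted by strand, so reads of these pairs may be divided uncertainly.

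*OsPRR95* and *OsPRR59* peak later in the day, between the morning and the evening genes. *OsPRR95* on chromosome 9 (20885173 to 20889792) had 181.7 and 182.8 FPKM in NT against 164.7 and 243.3 in OsNAC14OX. The NT replicates were nearly equal, and the OsNAC14OX replicates lay on both sides of them. The log2 fold change was 0.21 (standard error 0.20, 95% interval of the fold from 0.794 to 1.69, adjusted p = 0.788 from limma), and -0.056 without OsNAC14OX replicate 2. In OsNAC14OX replicate 2 the chlorophyll a-b binding transcripts were also the highest, at 11332 FPKM against 8699 in replicate 1, and the part of this in *OsPRR95* was not tested. Model Os09t0532400-02 held between 97.7% and 98.7% of its FPKM.

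*OsPRR59* on chromosome 11 (2789011 to 2793728) differed less between replicates. It had 36.0 and 33.8 FPKM in NT against 38.7 and 39.2 in OsNAC14OX, with no overlap. For *OsPRR59* the log2 fold change was 0.17 (standard error 0.09, 95% interval of the fold from 0.955 to 1.33, adjusted p = 0.644 from limma).

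The evening genes *OsPRR1* and *OsGI* had the smallest factors between their highest and lowest libraries among the 9 genes, 1.06 and 1.13. *OsPRR1*, the counterpart of Arabidopsis *TOC1*, lies on chromosome 2 (24569489 to 24572391) and had 54.4 and 53.8 FPKM in NT against 56.9 and 54.4 in OsNAC14OX. The closest NT and OsNAC14OX libraries could not be told apart at this rounding. Its log2 fold change was 0.06 (standard error 0.07, 95% interval of the fold from 0.909 to 1.20, adjusted p = 0.828 from limma).

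*OsGI* on chromosome 1 (4329362 to 4338486) had 487.5 and 461.6 FPKM in NT against 516.4 and 521.0 in OsNAC14OX. Both OsNAC14OX libraries were above both NT libraries, by a ratio of means of 1.09. The log2 fold change of *OsGI* in the fit was 0.14 (standard error 0.07, 95% interval of the fold from 0.961 to 1.26, adjusted p = 0.649 from limma). Both models were higher in both OsNAC14OX libraries, since Os01t0182600-01 had 318.2 and 285.7 FPKM in NT against 323.5 and 333.7 in OsNAC14OX, and Os01t0182600-03 had 169.4 and 176.0 in NT and 192.8 and 187.3 in OsNAC14OX. The share of Os01t0182600-01 was between 61.9% and 65.3% in all libraries.

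*OsLUX*, a GARP-type DNA-binding factor of the evening complex, also lies on chromosome 1 (42874273 to 42875515). It was the only clock gene with both OsNAC14OX libraries below both NT libraries, at 95.2 and 88.3 FPKM in NT and 81.4 and 77.0 in OsNAC14OX. Its log2 fold change was -0.16 (standard error 0.09, 95% interval of the fold from 0.759 to 1.05, adjusted p = 0.655 from limma). *OsGI* was 5.12 and 5.23 times *OsLUX* in NT and 6.35 and 6.77 times in OsNAC14OX, a ratio within each library that a common scaling factor would not alter.

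*OsELF3-1*, the scaffold of the evening complex and a gene known for its effect on heading date, lies on chromosome 6 (2234156 to 2236760). It had 20.5 and 18.9 FPKM in NT against 19.0 and 22.4 in OsNAC14OX, with overlapping groups. Its log2 fold change was 0.09 (standard error 0.13, 95% interval of the fold from 0.837 to 1.36, adjusted p = 0.856 from limma), and -0.031 without OsNAC14OX replicate 2.

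A later or earlier harvest of 1 group could, at some hours, move morning and evening genes in opposite directions, and the genes were therefore compared by phase. Since the hour of harvest is not given, the direction for each gene is not known, and genes of 1 phase group need not move together. The morning genes (*OsLHY*, *OsPRR73* and *OsPRR37*) had a mean log2(FPKM + 1) of 4.19 and 4.53 in NT and of 4.49 and 4.59 in OsNAC14OX. The evening genes (*OsPRR1*, *OsGI* and *OsLUX*) had 7.09 and 7.02 in NT and 7.09 and 7.05 in OsNAC14OX. The OsNAC14OX mean was thus 0.18 above that of NT for the morning genes and 0.01 above it for the evening genes, and 0.19 above it for *OsPRR95* and *OsPRR59*.

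Morning minus evening level was -2.90 and -2.49 in NT and -2.61 and -2.45 in OsNAC14OX on the log2 scale. The value of NT replicate 2 lay between those of the OsNAC14OX replicates, so the groups overlapped. The difference between the group means was 0.16, and it rested on single genes and libraries. Without *OsPRR73*, whose model Os03t0284100-02 was high in NT replicate 2, the level was -3.64 and -3.61 in NT and -3.32 and -3.20 in OsNAC14OX, with no overlap and a difference of 0.37. Without *OsLHY* the difference was -0.03 and without *OsLUX* 0.08. It was 0.37 without NT replicate 2, -0.04 without NT replicate 1, 0.24 without OsNAC14OX replicate 1 and 0.09 without OsNAC14OX replicate 2. Gene by gene, the morning genes *OsLHY* and *OsPRR37* were higher in both OsNAC14OX libraries and the evening gene *OsLUX* lower. The evening gene *OsGI* was higher in both. *OsPRR1* was higher in both only by an FPKM margin lost in rounding (log2 fold change 0.06). None of the 5 was called. The evening mean thus averaged genes with differences of opposite sign, and these values do not settle whether the groups differed in phase. An unequal hour of harvest, if there was one, cannot be told apart from the overexpression.

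**Figure D4:**
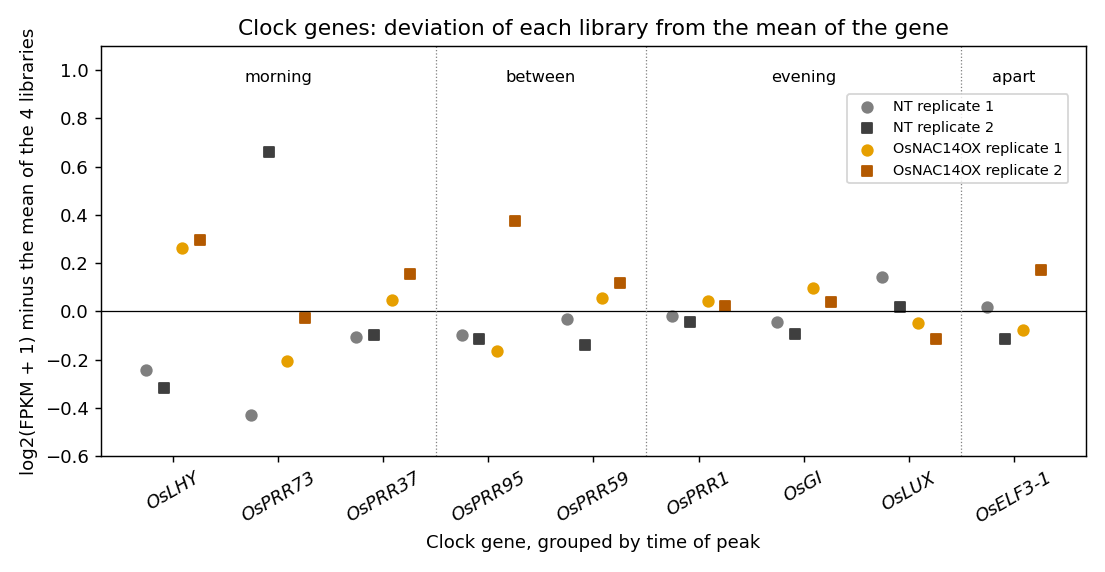
Deviation of each library from the mean of the 4 libraries for each clock gene, on the scale of normalized log2(FPKM + 1), with genes grouped by the time of their peak. Points are single libraries. OsNAC14OX lies above NT for *OsLHY* and below it for *OsLUX*, NT replicate 2 stands apart for *OsPRR73*, OsNAC14OX replicate 2 for *OsPRR95*, and *OsPRR1* and *OsGI* stay close to 0.

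Replicates of 1 group could be harvested apart as well, so they were also compared with each other. Between the NT replicates 1 of the 9 clock genes, *OsPRR73*, was at least 1.5-fold apart, where 2.77% of all genes tested were. Between the OsNAC14OX replicates 0 of 9 were, where 10.6% of all genes were, and the gene farthest apart was *OsPRR95*. The median size of the difference between replicates was 0.08 in NT and 0.06 in OsNAC14OX for the clock genes on the log2 scale. For all genes it was 0.10 and 0.16. Among single models, 4 of 15 clock transcripts were at least 1.5-fold apart in NT and 0 in OsNAC14OX. Of all 30251 transcripts tested, 1420 and 3534 were. The median size was 0.13 and 0.11 for the clock transcripts and 0.12 and 0.17 for all transcripts.

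Genes that feed into the clock or read it out were examined as lists, of which all 6 light receptor genes, all 3 genes of LOV-domain F-box proteins, both other evening complex genes and 13 of 15 heading genes were in the table. None of the 8, 4, 2 and 12 transcripts tested in these lists was called, and none had an unadjusted p under 0.05 in limma. Over all transcripts tested the shares were 0.555% and 9.40%, so lists this small may hold none. The median log2 fold changes of these lists were 0.08, 0.06, -0.04 and 0.01. Among the light receptors, the blue-light receptor gene *OsCRY1a* (Os02t0573200-01) had 12.0 and 12.4 FPKM in NT against 13.6 and 16.9 in OsNAC14OX (log2 fold change 0.32, adjusted p = 0.617). *OsPHYB* (Os03t0309200-01), a red-light receptor gene, had a log2 fold change of 0.22 and *OsCRY1b* (Os04t0452100-01) one of 0.16, both without overlap of the groups. Lower in both OsNAC14OX libraries were the other tested model of *OsPHYB*, Os03t0309200-02 (10.1 and 11.3 FPKM in NT, 9.63 and 8.61 in OsNAC14OX, log2 fold change -0.18), and the blue-light receptor gene *OsCRY2* (Os02t0625000-01, 32.0 and 32.2 in NT, 28.5 and 28.9 in OsNAC14OX, -0.14). Of the 8 transcripts tested in this list, 3 thus lay above NT without overlap and 2 below it. Among all transcripts tested, 40.9% did not overlap and 20.4% lay above NT.

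*OsFKF1* and *OsZTL2* encode F-box proteins with a blue-light sensing LOV domain, partners of GIGANTEA in Arabidopsis. Os11t0547000-01 of *OsFKF1* was at 35.8 and 35.3 FPKM in NT and at 30.8 and 35.7 in OsNAC14OX, and Os11t0547000-02 had a log2 fold change of 0.19. *OsZTL2* (Os02t0150800-01) had one of 0.08. The evening complex genes *OsELF4a* (Os11t0621500-01) and *OsELF3-2* (Os01t0566100-01) had log2 fold changes of -0.05 and -0.04, and the groups overlapped in both.

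Of the heading genes, 10 had a tested transcript. *Se5* (Os06t0603000-01), a heme oxygenase that makes the chromophore of phytochrome, had 44.1 and 43.2 FPKM in NT against 48.6 and 56.7 in OsNAC14OX (log2 fold change 0.29, adjusted p = 0.589 from limma). *OsMADS50* (Os03t0122600-02), a MADS-box activator of flowering, and *OsCO3* (Os09t0240200-01), a CONSTANS-like gene, each had a log2 fold change of 0.26, with adjusted p of 0.625 and 0.634. The other tested model of *OsMADS50*, Os03t0122600-01, overlapped between the groups (log2 fold change 0.06). The largest difference in size in the list was that of the CONSTANS-like gene *OsCOL4* (Os02t0610500-01), at 12.5 and 15.8 FPKM in NT and 8.21 and 12.6 in OsNAC14OX, with overlapping groups (log2 fold change -0.40, adjusted p = 0.716 from limma). *OsCOL4*, *OsCRY2*, Os03t0309200-02 and Os03t0122600-01 were named after their values were seen. *Ehd1* and *Hd3a* were not analysed here.

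The chlorophyll a-b binding genes, whose transcripts are under clock control in plants, held 14 genes with 19 tested transcripts. None was called, where 0.555% of all transcripts tested were. At an unadjusted p under 0.05 in limma 1 passed, against a background of 9.40%. It was Os07t0562700-01, at 603.4 and 539.3 FPKM in NT and 603.4 and 767.9 in OsNAC14OX. In FPKM its lowest OsNAC14OX value exceeded the highest NT value only by a margin lost in rounding. On the normalized log2 scale that was tested, these libraries stood at 9.38 (OsNAC14OX replicate 1) and 9.21 (NT replicate 1). Os07t0577600-01 and Os07t0558400-01 had log2 fold changes of 0.20 and 0.26 (adjusted p of 0.535 and 0.546 from limma). In FPKM the groups of Os07t0558400-01 overlapped, at 1041.5 and 1060.2 in NT and 1015.6 and 1332.7 in OsNAC14OX. They did not overlap on the normalized log2 scale. The median log2 fold change of the list was 0.20. Its transcripts summed to 9143 and 8893 FPKM in NT and to 8699 and 11332 in OsNAC14OX. In sum, OsNAC14OX replicate 1 thus lay below both NT libraries and OsNAC14OX replicate 2 above them.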

How the data were processed

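Leaf RNA of 2 NT and 2 OsNAC14OX samples was analyzed. Single-end reads were trimmed by the authors (Trimmomatic), aligned to IRGSP-1.0 (TopHat, RAP-DB annotation) and deposited as FPKM per transcript, by a tool not given in the sources used here. Also deposited by the authors were log2 values, log2(FPKM + 1) after quantile normalization over their table. That table has 4 further columns of libraries outside the series, which were not used, nor were the deposited columns and tables of the authors' own fold changes, p-values, KEGG maps and functional terms. Locus starts were counted from 0 in the file (for 9352 models the end minus the start equals the length) and are given here from 1.

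The normalized log2 values were fitted with limma 3.58.1 in R 4.3.3 (lmFit, eBayes with trend, two-sided) for the 30251 transcripts that reached 1 FPKM in 2 or more libraries, with Benjamini-Hochberg adjustment over all of them. The fit was tried on simulated independent normal values, which hold no batch and no correlated transcripts. The same model was fitted on log2 of FPKM summed per gene + 1, quantile normalized over the 4 libraries, for 25811 genes. Folds and log2 fold changes are of FPKM + 1 and understate the change of low genes such as *OsLHY*. No count model was fitted, since depth is unknown. The replicate number was not used as a block, since the differences between replicates 1 and 2 in NT and in OsNAC14OX were unrelated (r = 0.0037 across 30251 transcripts, which are not independent).

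The 9 genes, their phases and the gene lists were chosen with earlier results of these data known. Named were all 9 genes with every model, in each other list up to 3 transcripts with the smallest p, the 3 transcripts most like the clock transcript with the largest change (mean FPKM of at least 5) and *OsNAC14*. No ID of the lists was left out for its description. One match of the Rubisco search, a methyltransferase, and an accidental RCc3 match in the word ERCC3 were removed after they were seen. Promoter motifs were not analysed here. Alternatives were other scalings, pseudocounts and filters, no trend, the replicate block and leaving out each library.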

Additional observations from a re-analysis of the deposited data

How the results depend on the processing

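The count of called transcripts was 168 and depended on the libraries. It was 109 with no filter, 469 with an unadjusted p and the fold, and 2843 with an unadjusted p alone. Leaving out 1 library gave counts from 0 to 772, with 0 without either NT replicate, 59 without OsNAC14OX replicate 1 and 772 without OsNAC14OX replicate 2. With the replicate block it was 0. The count of called clock transcripts was 0 under every alternative that adjusted p (limma), 1 with an unadjusted p and the fold (Os08t0157600-03), and 2 with an unadjusted p alone. No call of a clock gene was changed by the replicate block or by the pairing of replicate numbers, since none was called (lowest adjusted p of a clock transcript under any alternative 0.0891, of a clock gene 0.0693).

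Of 176 log2 fold changes of clock transcripts under alternatives 170 kept their direction, as did 60 of 63 of clock genes. All that turned did so when 1 library was left out, and the lowest and highest values over the libraries left out follow. They were -0.13 (without NT replicate 2) and 0.41 for Os08t0157600-02, -0.10 (without NT replicate 1) and 0.20 for Os03t0284100-01, -2.61 and 0.38 (without NT replicate 2) for Os03t0284100-02, and -0.047 (without NT replicate 1) and 0.55 for Os09t0532400-01. Without OsNAC14OX replicate 2 the lowest were -0.062 for Os09t0532400-02 (highest 0.46), -0.038 for Os06t0142600-01 (highest 0.22), -0.056 for *OsPRR95* (highest 0.48) and -0.031 for *OsELF3-1* (highest 0.22) with summed FPKM. *OsPRR73* with summed FPKM ran from -0.78 to 0.32 (without NT replicate 2). For *OsLHY* with summed FPKM the value ran from 0.52 to 0.60 when a library was left out, and was 0.54 without quantile normalization and 0.63 with a pseudocount of 0.1 (both chosen after seeing the data). The difference of the morning minus evening level was 0.16, 0.16 without quantile normalization, 0.23 without *OsGI*, -0.03 without *OsLHY* and, chosen after seeing the data, 0.37 without *OsPRR73*, 0.08 without *OsLUX* and from -0.04 to 0.37 when a library was left out. Precision was limited by 2 libraries a group and by an unknown depth.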
